A study of Mus musculus with 8 samples.

Results

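The natriuretic peptide system of the fetal heart was examined through 8 genes, namely the hormones *Nppa*, *Nppb* and *Nppc*, the processing proteases *Corin* and *Furin*, and the receptors *Npr1*, *Npr2* and *Npr3*. All probe sets annotated to 1 of these genes alone were used, which gave 10 probe sets of 8 genes among 45101 probe sets, of which 34958 carried 1 gene and together covered 18194 genes. *Npr3* had 3 probe sets and each other gene had 1. The hearts came from 3 2lox/2lox and 5 wild-type mouse embryos at E18.5, and each intact heart gave 1 Affymetrix Mouse430 array. The 2lox/2lox embryos were homozygous in all cells for a floxed, unrecombined allele of *Lsd1* (*Kdm1a*, also called *Aof2*), the gene of a histone lysine demethylase, and that allele also carries point mutations in the tower domain, so these hearts were hypomorphic although their labels also call them a knock-out. The wild-type embryos were described as littermates, but the labels give neither litter nor sex. The comparison addressed which transcripts differed between the genotypes, given the ventricular septal defects of the hypomorphic animals. All values are log2 expression levels as deposited, and differences are 2lox/2lox minus wild-type.

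Atrial natriuretic peptide (*Nppa*) and B-type natriuretic peptide (*Nppb*) are hormones of heart muscle cells that are released on stretch and lower blood volume and pressure. In the fetal heart both are made in the trabeculated ventricle as well as in the atria, and C-type natriuretic peptide (*Nppc*) is made mainly outside heart muscle. Furin and corin are proteases that cut the precursors, the guanylyl cyclase receptors *Npr1* and *Npr2* make cyclic GMP when a hormone binds, and *Npr3* takes the hormones up and clears them.

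No member passed the test between genotypes. *Npr3* had the largest difference, at 0.51 and 0.47 log2 units lower in 2lox/2lox hearts in the probe sets 1448024_at and 1450286_at, with all 3 2lox/2lox hearts below all 5 wild-type hearts in both. *Nppa* was 0.27 log2 units lower on average with overlapping groups, and *Nppb* differed by 0.13 with a wide spread among hearts of both genotypes. In RNA of whole hearts, fewer cells of a type and less RNA per cell cannot be told apart. By the fit across all probe sets (limma, Benjamini-Hochberg adjusted p, threshold 0.05), 0 of the 10 member probe sets and 0.0798% of all probe sets were called. An unadjusted p under 0.05 was found for 4 of the 10, the probe sets of *Nppa* and *Nppc* and these 2 of *Npr3*, against 10.9% of all probe sets. The groups did not overlap in 2 of the 10, both of *Npr3* with the 2lox/2lox hearts below, against 6.11% of all probe sets in either direction and 2.71% in that one. The log2 fold change was above 0 in 5 of the 10 and in 48.5% of all probe sets.

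**Figure D1:**
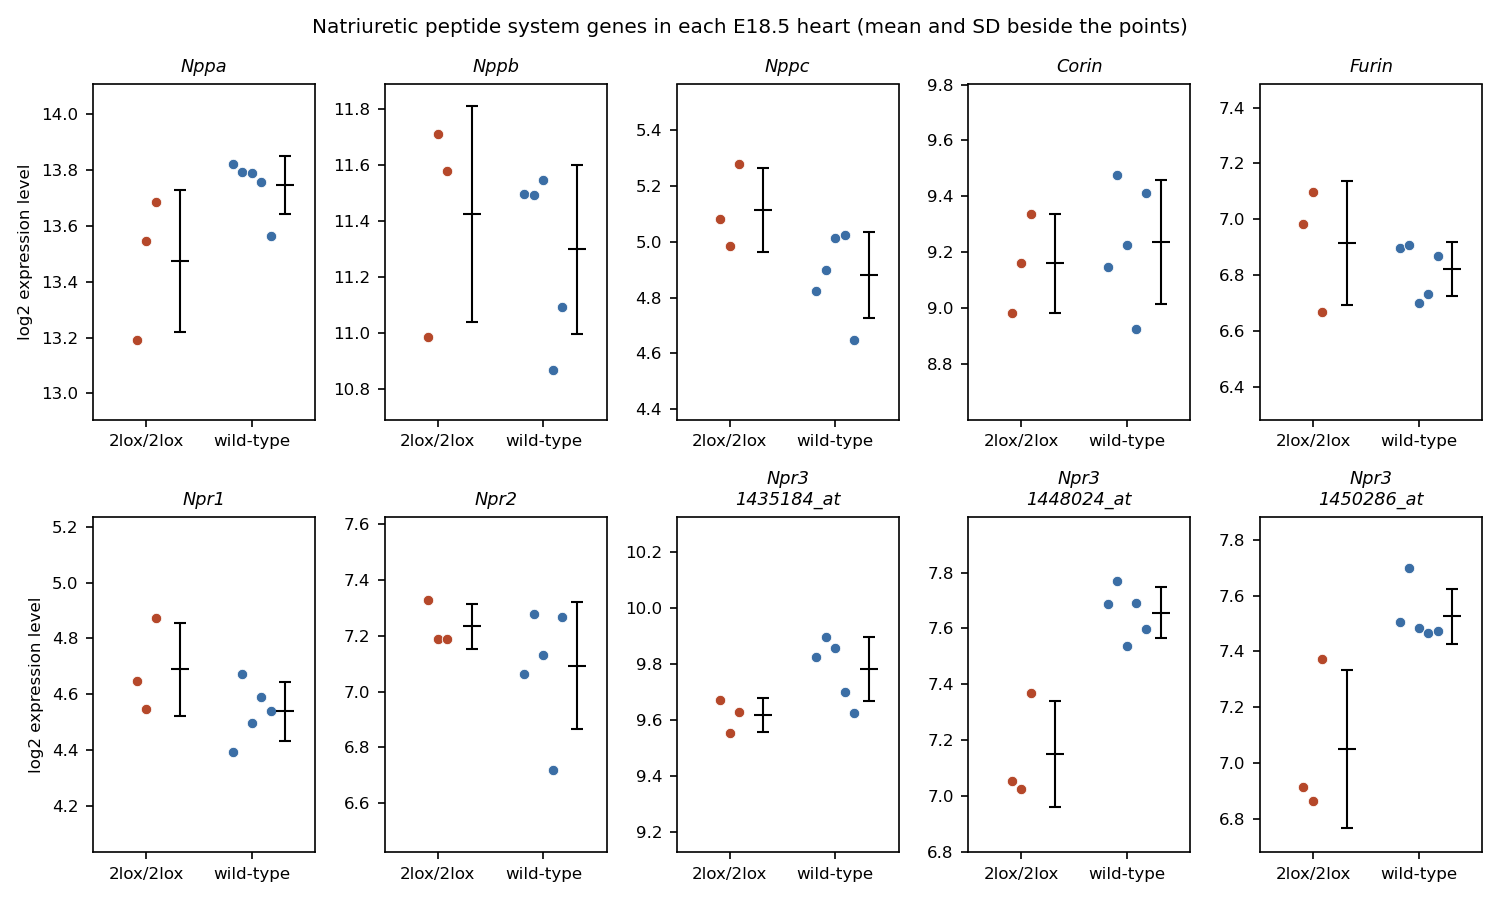
Log2 expression level of each member probe set (vertical axis, every panel spanning the same range) in each 2lox/2lox heart (left, n = 3) and wild-type heart (right, n = 5), with the mean and SD beside the points. The *Npr3* panels of 1448024_at and 1450286_at are those in which all 2lox/2lox hearts lie below all wild-type hearts.

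**Figure D2:**
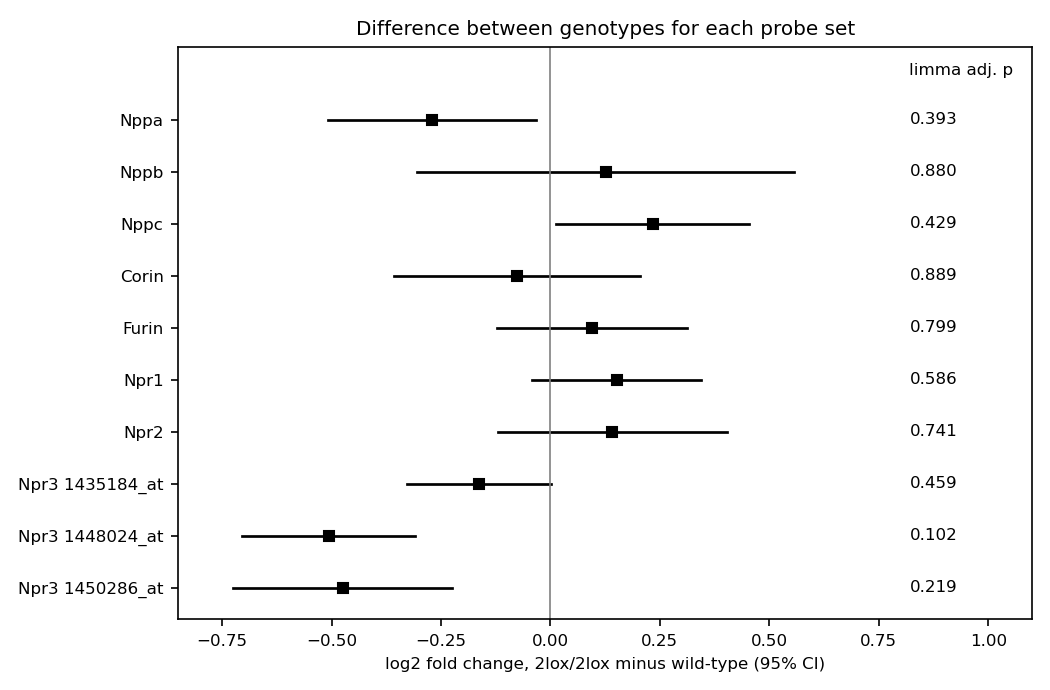
Log2 fold change of each member probe set, 2lox/2lox minus wild-type (squares), with its 95% confidence interval (lines) and limma adjusted p (right). The estimates run between -0.51 for *Npr3* 1448024_at and 0.23 for *Nppc*, and no adjusted p is under 0.05.

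*Nppa* and *Nppb* lie next to each other on mouse chromosome 4, the chromosome that also holds *Kdm1a*. The stretches just before their starts are printed because these promoters are known targets of the cardiac factors that are described further on. They were taken from RefSeq (GRCm38.p6), both on the plus strand, at chr4:148000472-148000721 for *Nppa* and chr4:147985650-147985899 for *Nppb*, and each holds the 250 bases before the annotated start. Capitals mark GATAA (a motif of GATA factors) and AAGTG (the core of an NKX2-5 motif), each on either strand, and TATAAA on the plus strand only. None of the marked matches overlap.
Nppa: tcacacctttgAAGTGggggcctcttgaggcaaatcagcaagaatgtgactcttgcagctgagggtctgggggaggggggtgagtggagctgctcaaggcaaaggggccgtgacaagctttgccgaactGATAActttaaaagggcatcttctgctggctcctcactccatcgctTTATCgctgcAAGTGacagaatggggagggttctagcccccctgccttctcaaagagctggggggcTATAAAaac
Nppb: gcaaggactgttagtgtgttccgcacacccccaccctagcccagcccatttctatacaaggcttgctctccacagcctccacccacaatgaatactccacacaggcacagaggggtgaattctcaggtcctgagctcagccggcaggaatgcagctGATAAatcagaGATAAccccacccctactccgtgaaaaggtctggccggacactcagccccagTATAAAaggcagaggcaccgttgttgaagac
Both stretches held 2 matches to GATAA and 1 to TATAAA, and *Nppa* also held 2 matches to AAGTG where *Nppb* held 0. In a window of 300 bases that adds the 50 bases after the start, GATAA occurred in 25.4%, AAGTG in 46.4% and TATAAA in 8.3% of 32851 RefSeq promoters. The serum response factor motif (CArG box) was searched only as an exact CCWWWWWWGG, where W is A or T. In that form it occurred in 1.6% of these promoters and in none of the members. Sites with a mismatch to this pattern were not searched, so their absence is not shown. All 8 members had a promoter entry. Among the other 6 members, AAGTG occurred only in *Furin* (5 matches, in 1 of its 2 entries), TATAAA in *Nppc* and in the same entry of *Furin*, and GATAA in none. These matches describe letters in a window and do not mark bound sites.

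The level of *Nppa* was 13.19, 13.54 and 13.69 in the 3 2lox/2lox hearts, against 13.82, 13.79, 13.79, 13.76 and 13.56 in the 5 wild-type hearts. 2lox/2lox heart 1 was the lowest of all, 2lox/2lox heart 3 was higher than wild-type heart 5, and the groups overlapped. The means were 13.47 ± 0.25 in 2lox/2lox hearts and 13.75 ± 0.10 in wild-type hearts (SD, n = 3 and 5), a log2 fold change of -0.27 with an interval of -0.51 to -0.03 (limma adjusted p = 0.393). The arrays reached maxima of 14.42 to 14.55, so all values of this probe set lay close to the upper end of the scale.

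The 2 hearts with the lowest *Nppa* also stood apart in a measure of RNA quality. The 3'-5' gap, that is the 3' level minus the 5' level in the array's *Actb* and *Gapdh* controls, which is larger in more degraded RNA, was 0.52, 0.50 and 0.33 log2 units in 2lox/2lox hearts 1, 2 and 3, against 0.32 to 0.38 in wild-type hearts. With this gap as a covariate the log2 fold change of *Nppa* was -0.08 (limma adjusted p = 1.0), and without 2lox/2lox heart 1 it was -0.13. Across the 8 hearts the level of *Nppa* and the gap had r = -0.81 (exact permutation p = 0.0172, 0.0861 after adjustment over 5 relations) and rho = -0.57 (exact permutation p = 0.151). Without 2lox/2lox hearts 1 and 2 the r was 0.14, so the relation rests on those 2 hearts.

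*Nppb* varied more than nearly all other probe sets within each genotype. Its level was 10.98, 11.71 and 11.58 in 2lox/2lox hearts, against 11.50, 11.49, 11.55, 10.87 and 11.09 in wild-type hearts. 2lox/2lox heart 1 and wild-type hearts 4 and 5 were low, and the remaining 5 hearts of both genotypes lay close together. The means were 11.42 ± 0.39 and 11.30 ± 0.30 (SD, n = 3 2lox/2lox and 5 wild-type hearts). The SD was larger than that of 98.2% of all probe sets in 2lox/2lox hearts and of 97.6% in wild-type hearts. The log2 fold change was 0.13 with an interval of -0.30 to 0.56 (limma adjusted p = 0.880), an interval that holds sizeable values of either sign.

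The order of the hearts differed between *Nppa* and *Nppb*. Over the 8 hearts they had r = 0.39 (exact permutation p = 0.367, adjusted p = 0.459) and rho = 0.05 (exact permutation p = 0.935). Without 2lox/2lox heart 1 and wild-type heart 4 the r was 0.19, and on values centred on each genotype's mean it was 0.72. Both hormones were lowest in 2lox/2lox heart 1 within that genotype, while wild-type heart 4 had the lowest *Nppb* of all hearts and a *Nppa* level near the wild-type mean.

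**Figure D3:**
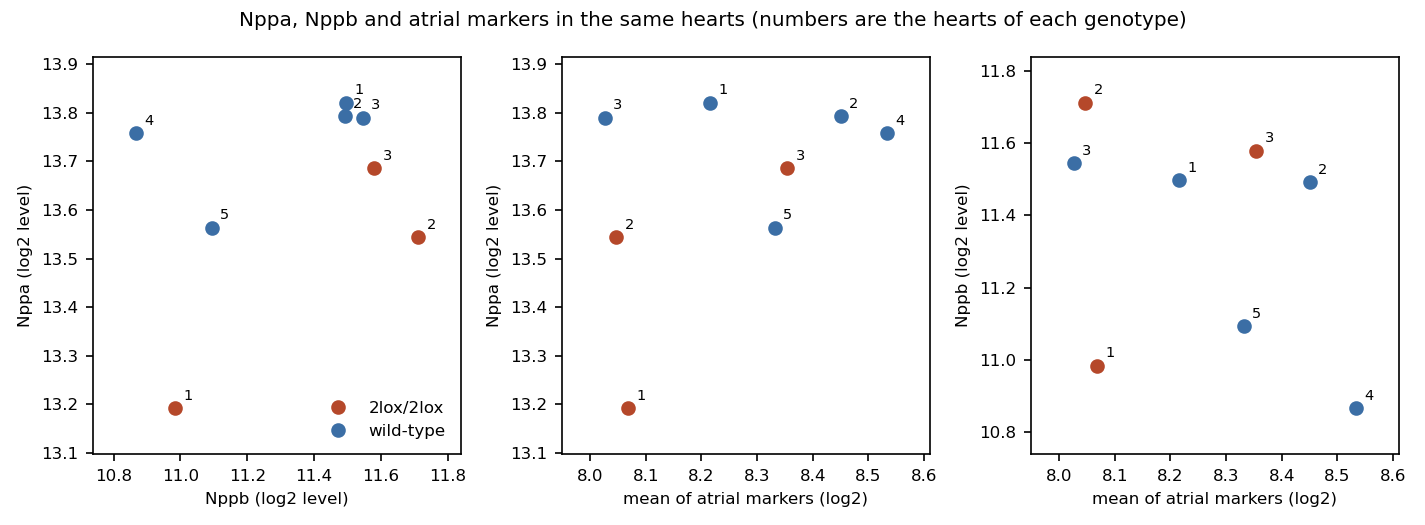
Log2 levels of *Nppa* and *Nppb* in each heart against each other (left) and each against the mean log2 level of 14 atrial markers (middle and right), with 2lox/2lox and wild-type hearts numbered. 2lox/2lox heart 1 is low for both hormones (13.19 and 10.98), and wild-type heart 4 is low for *Nppb* only (10.87).

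The genes whose pattern over the 8 hearts was most like that of *Nppa* were *Dimt1* (r = 0.96), *Gmds* (0.96), *6030468B19Rik* (0.95), *Cnnm4* (0.95) and *Pdk3* (0.95). For *Nppb* they were *Cln3* (0.97), *Plk2* (0.96), *Cdc42ep2* (0.94), *Trappc9* (0.91) and *Parm1* (0.89). These are the highest of the values over 11973 genes and are given as a description, since all points share the same 8 arrays.

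*Nppc* was measured at a low level, 5.08, 4.98 and 5.28 in 2lox/2lox hearts, against 4.82, 4.90, 5.01, 5.02 and 4.65 in wild-type hearts. 2lox/2lox heart 3 was the highest of all and 2lox/2lox heart 2 lay within the wild-type range. The log2 fold change was 0.23 with an interval of 0.01 to 0.45 (limma adjusted p = 0.429). The median of all values was 5.07 and no detection calls were used, so this signal lay where background and expression are hard to separate.

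Of the processing proteases, corin, a membrane protease of heart muscle cells that activates pro-ANP, varied widely. *Corin* was at 8.98, 9.16 and 9.34 in 2lox/2lox hearts, against 9.15, 9.48, 9.22, 8.92 and 9.41 in wild-type hearts. Wild-type heart 4 was the lowest and the groups overlapped, with a log2 fold change of -0.08 and an interval of -0.36 to 0.20 (limma adjusted p = 0.889). Furin, a protease of the secretory pathway found in most cells that cuts pro-BNP among many substrates, also differed by less than its spread. *Furin* was at 6.98, 7.10 and 6.67 in 2lox/2lox hearts, against 6.90, 6.91, 6.70, 6.73 and 6.87 in wild-type hearts. 2lox/2lox heart 2 was the highest and 2lox/2lox heart 3 the lowest of all 8, and the log2 fold change was 0.09 with an interval of -0.12 to 0.31 (limma adjusted p = 0.799).

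*Npr3* encodes the clearance receptor, which in the developing heart is known from the endocardium. Probe set 1448024_at was at 7.05, 7.03 and 7.37 in 2lox/2lox hearts, against 7.69, 7.77, 7.54, 7.69 and 7.60 in wild-type hearts. All 2lox/2lox hearts were lower than the lowest wild-type heart, and 2lox/2lox heart 3 was the nearest to the wild-type range. The means were 7.15 ± 0.19 in 2lox/2lox hearts and 7.66 ± 0.09 in wild-type hearts (SD, n = 3 and 5), a fold of 0.704 with an interval of 0.614 to 0.807 (limma adjusted p = 0.102). Probe set 1450286_at also separated the genotypes, with the same order of the 2lox/2lox hearts, at 6.92, 6.86 and 7.37 in 2lox/2lox hearts, against 7.51, 7.70, 7.48, 7.47 and 7.47 in wild-type hearts. Its means were 7.05 ± 0.28 in 2lox/2lox hearts and 7.53 ± 0.10 in wild-type hearts (SD, n = 3 and 5), a fold of 0.720 (limma adjusted p = 0.219). By p they ranked 80 and 351 of 45101 probe sets.

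The third and brightest *Npr3* probe set, 1435184_at, differed less. Its level was 9.67, 9.55 and 9.63 in 2lox/2lox hearts, against 9.82, 9.90, 9.86, 9.70 and 9.63 in wild-type hearts. Wild-type heart 5 lay among the 2lox/2lox hearts, and the log2 fold change was -0.16 with an interval of -0.33 to 0.00 (limma adjusted p = 0.459). The probe sets therefore agreed in sign but not in size, and where in the transcript each one lies was not used here.

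Whether *Npr3* passed the threshold depended on single hearts. Without 2lox/2lox heart 3, the log2 fold change was -0.62 for 1448024_at and -0.64 for 1450286_at, both with a limma adjusted p of 0.013. Without it, however, 797 probe sets in all were called, against 36 with all hearts. The 2lox/2lox hearts that remained were then those with the largest 3'-5' gaps. With a score of sex-linked transcripts as a covariate the 2 *Npr3* probe sets also passed, at -0.54 and -0.53 (limma adjusted p = 0.027 for both). The number of all probe sets called with that covariate is not given here, so a general rise in calls cannot be judged. *Xist*, the RNA of the inactive X chromosome in females, was high in 2lox/2lox heart 3 and wild-type heart 2 (log2 level of at least 10.59) and low in the other 6 hearts (at most 4.94).

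With the 3'-5' gap as a covariate, the log2 fold changes of these 2 *Npr3* probe sets were smaller, at -0.31 for 1448024_at and -0.22 for 1450286_at (limma adjusted p = 1.0 for both). That of 1435184_at was -0.18. 2lox/2lox hearts 1 and 2, which had the largest 3'-5' gaps, were also the lowest in 1448024_at and 1450286_at. 2lox/2lox heart 3, with a gap inside the wild-type range, was at 7.37 in both. The lowest wild-type hearts were at 7.54 and 7.47. In 1435184_at, 2lox/2lox heart 3 and wild-type heart 5 were both at 9.63. The part of RNA quality in the *Npr3* difference was not tested beyond these values.

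**Figure D4:**
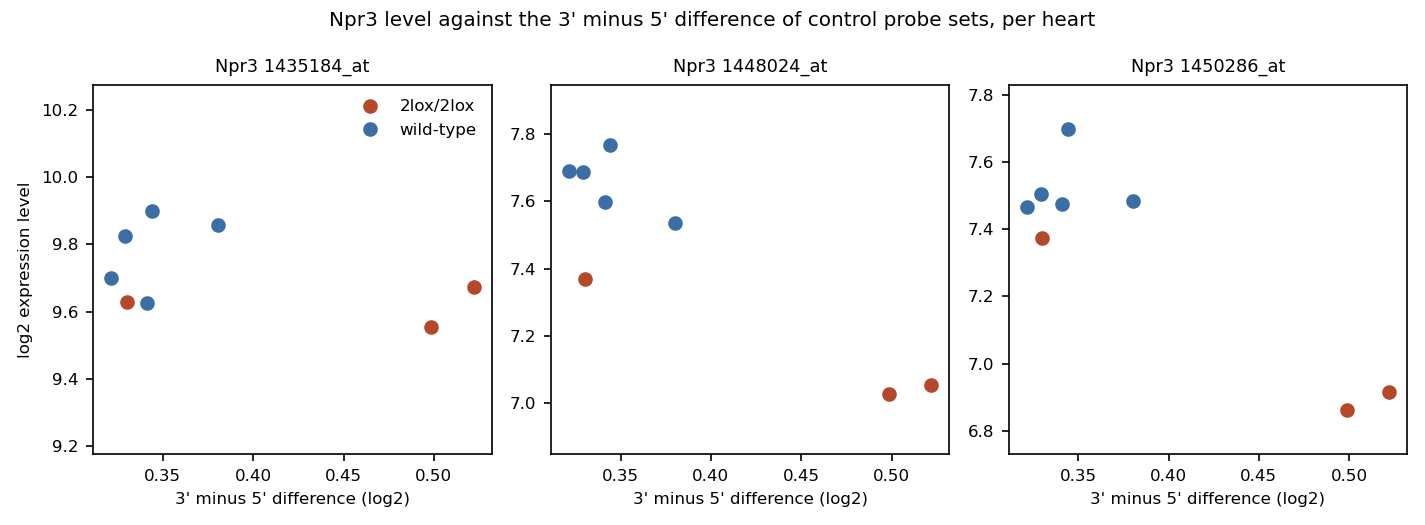
Log2 level of each *Npr3* probe set in each heart (vertical axes, of equal span) against the 3'-5' gap in log2 units (3' minus 5' difference on the axis) (horizontal axes) for 2lox/2lox and wild-type hearts. 2lox/2lox hearts 1 and 2 lie at gaps of 0.52 and 0.50, to the right of all wild-type hearts, and 2lox/2lox heart 3 lies at 0.33, among them.

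Endothelial and endocardial markers were not lower as a list beside *Npr3*. The list mixes the 2 kinds, so endocardial cells alone were not checked. Of 12 measured, 8 had a positive log2 fold change, 0 passed the threshold in either direction, and the median was 0.06, against a median of -0.0046 over all 18194 genes. The mean deviation of the list from the wild-type mean was 0.11, 0.10 and 0.01 in 2lox/2lox hearts 1, 2 and 3, against -0.08 to 0.12 in wild-type hearts. *Vwf*, the clotting factor of endothelial cells, was at 0.45 (limma adjusted p = 0.241), *Tie1*, an endothelial receptor kinase, at 0.22 (limma adjusted p = 0.381) and *Egfl7* at 0.16 (limma adjusted p = 0.370). *Emcn*, an endothelial surface mucin, was at -0.15 (limma adjusted p = 0.459). These 4 genes had the smallest p of the list. The other genes below 0 were *Pecam1* at -0.13, *Tek* at -0.13 and *Nfatc1* at -0.07. 2lox/2lox hearts 1 and 2 had the large 3'-5' gaps, and the part of RNA quality in these marker values was not tested.

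The cyclase receptors gave small positive differences. *Npr1*, the receptor of the atrial and B-type hormones, was at 4.65, 4.55 and 4.87 in 2lox/2lox hearts, against 4.40, 4.67, 4.50, 4.59 and 4.54 in wild-type hearts. These levels lay between the lower quartile of all values, 4.21, and their median, so the log2 fold change of 0.15 with an interval of -0.04 to 0.34 (limma adjusted p = 0.586) may describe background as much as transcript. *Npr2*, the receptor of C-type natriuretic peptide, was at 7.33, 7.19 and 7.19 in 2lox/2lox hearts, against 7.06, 7.28, 7.13, 6.72 and 7.27 in wild-type hearts. Wild-type heart 4 was low and the other 7 hearts overlapped, with a log2 fold change of 0.14 and an interval of -0.12 to 0.40 (limma adjusted p = 0.741).

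Among 9 measured genes of a hormone breakdown and release list, which also holds the *Nppa* neighbour *Clcn6*, 0 passed the threshold. The median log2 fold change was -0.02. The largest difference was in *Mme*, the gene of neprilysin, a membrane protease that degrades natriuretic peptides. *Mme* was at 5.58, 5.61 and 5.61 in 2lox/2lox hearts, against 6.70, 6.23, 6.56, 6.87 and 6.26 in wild-type hearts. The 2lox/2lox hearts were nearly equal and all lay below the wild-type range, with a log2 fold change of -0.93 and a limma adjusted p of 0.0542, just above the threshold. The difference passed in 8 of 19 other settings, and with the 3'-5' gap as a covariate it was -0.88 (limma adjusted p = 0.696). A dimmer *Mme* probe set, 1422975_at, averaged 4.47 ± 0.10 in 2lox/2lox hearts and 4.89 ± 0.09 in wild-type hearts (SD, n = 3 and 5), again without overlap (limma adjusted p = 0.102). *Ide*, the insulin-degrading enzyme that also cuts natriuretic peptides, was at 0.23 (limma adjusted p = 0.557), *Clcn6*, a chloride transporter gene that neighbours *Nppa*, at 0.21 (limma adjusted p = 0.435) and *Dpp4*, a peptidase, at -0.18 (limma adjusted p = 0.606).

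Of 25 measured genes of cyclic GMP signalling, 0 passed, 9 had a positive log2 fold change and the median was -0.03. The smallest unadjusted p belonged to subunits of the soluble guanylyl cyclase, which makes cyclic GMP in response to nitric oxide and not to natriuretic peptides. *Gucy1b1*, its beta subunit, was at 9.46, 9.47 and 9.75 in 2lox/2lox hearts, against 9.90, 9.82, 9.82, 9.79 and 9.86 in wild-type hearts, without overlap (log2 fold change -0.28, limma adjusted p = 0.250). *Gucy1a1*, its alpha subunit, was at 9.89, 9.49 and 10.22 in 2lox/2lox hearts, against 10.34, 10.18, 10.36, 10.40 and 10.37 in wild-type hearts with overlap (log2 fold change -0.46, limma adjusted p = 0.279). In a dimmer *Gucy1b1* probe set, 1420871_at, the groups overlapped (log2 fold change -0.49, limma adjusted p = 0.253). There 2lox/2lox heart 3 was at 9.25 and wild-type heart 4 at 9.18. 2lox/2lox hearts 1 and 2 were the lowest in both genes and heart 3 was the nearest to wild-type. The *Npr3* probe sets that separated the genotypes had the same pattern. 2lox/2lox hearts 1 and 2 also had the large 3'-5' gaps, and the part of RNA quality in the *Gucy1b1* and *Gucy1a1* values was not tested. *Vasp*, a substrate of the cyclic GMP-dependent kinase, was at 0.28 (limma adjusted p = 0.315) and the phosphodiesterase *Pde1b* at 0.14 (limma adjusted p = 0.475).

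Regulators of *Nppa* and *Nppb* transcription, a list of both activators and repressors, were positive in 21 of 27 measured genes, with a median log2 fold change of 0.09, and 0 passed. Their mean deviation was 0.14, 0.17 and 0.05 in 2lox/2lox hearts 1, 2 and 3, against -0.06 to 0.06 in wild-type hearts. 2lox/2lox hearts 1 and 2 had the large 3'-5' gaps, and the part of RNA quality in the regulator values was not tested. At an unadjusted p under 0.05, 8 regulators were higher and 1 was lower. That compares with 1059 and 802 of all 18194 genes, and with 5.97% and 4.94% of all probe sets. *Gata4*, an activator that binds the GATA motif, was at 9.71, 9.73 and 9.44 in 2lox/2lox hearts, against 9.42, 9.18, 9.37, 9.17 and 9.19 in wild-type hearts, without overlap (log2 fold change 0.36, limma adjusted p = 0.228). *Myocd*, the coactivator of serum response factor, was at 0.63 (limma adjusted p = 0.262) and *Tead1*, a factor of the Hippo pathway, at 0.32 (limma adjusted p = 0.308). *Hey1*, a repressor downstream of Notch, was at -0.27 (limma adjusted p = 0.290). *Nppa*, at -0.27, and *Nppb*, at 0.13, had opposite signs beside these values.

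Genes linked to load or to the fetal program of heart muscle, for which *Nppa* and *Nppb* are standard markers, had a median log2 fold change of 0.05 over 16 measured genes, with 12 positive and 0 past the threshold. The list also holds *Myh6* (0.05) and *Tnni3* (0.13), so it is not a list of genes raised under load alone. *Des*, the intermediate filament of muscle, was at 0.36 (limma adjusted p = 0.187), *Acta1*, skeletal actin, at 0.43 (limma adjusted p = 0.466), *Rcan1*, a target and inhibitor of calcineurin, at 0.17 (limma adjusted p = 0.664) and *Timp1*, an inhibitor of matrix proteases, at -0.14 (limma adjusted p = 0.610).

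Atrial markers were low in 2lox/2lox hearts 1 and 2, where *Nppa* was lowest, and also in wild-type heart 3, where *Nppa* was not low. Of 14 measured, 4 had a positive log2 fold change, 4 were lower at an unadjusted p under 0.05 (against 802 of all 18194 genes and 4.94% of all probe sets), 0 passed and the median was -0.06. 2lox/2lox hearts 1 and 2 are also those with the large 3'-5' gaps (0.52 and 0.50, against at most 0.38 in the other hearts), and the part of RNA quality in the atrial values was not tested. Their mean deviation from the wild-type mean was -0.24, -0.26 and 0.04 in 2lox/2lox hearts 1, 2 and 3, against -0.29 to 0.22 in wild-type hearts, so the groups overlapped. *Gja5*, the connexin of atrial and conduction cells, was at 5.64, 5.72 and 6.89 in 2lox/2lox hearts, against 6.80, 6.75, 6.73, 6.80 and 6.90 in wild-type hearts (limma adjusted p = 0.320). *Bmp10*, an atrial and trabecular growth factor, was at 5.49, 5.74 and 5.80 in 2lox/2lox hearts, against 5.88, 6.28, 5.94, 6.17 and 6.15 in wild-type hearts (limma adjusted p = 0.234). The atrial potassium channel genes *Kcna5* and *Kcnj3* were at -0.38 (limma adjusted p = 0.264) and -0.40 (limma adjusted p = 0.281). These 4 genes had the smallest p of the list. *Kcnj5*, *Dkk3*, *Nr2f2* and *Sln* were the positive ones, at 0.19, 0.17, 0.12 and 0.0084. The myosin light chain genes *Myl7* and *Myl4* were at -0.0017 and -0.0064. *Pam*, *Tbx5*, *Stard10* and *Nr2f1* were at -0.02, -0.10, -0.13 and -0.51.

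Over the 8 hearts, the mean of the atrial markers had r = 0.43 with *Nppa* (exact permutation p = 0.301, adjusted p = 0.459; rho = 0.26) and r = -0.38 with *Nppb* (exact permutation p = 0.340, adjusted p = 0.459; rho = -0.50). Without wild-type hearts 3 and 4 these were 0.65 and 0.09, and centred on each genotype they were 0.23 and -0.33. Ventricular markers were positive in 7 of 8 measured genes with a median of 0.18 and 0 passed, and their mean deviation was 0.20, 0.30 and 0.07 in 2lox/2lox hearts, against -0.24 to 0.14 in wild-type hearts. *Lbh*, *Kcne1*, *Irx4* and *Hey2*, which had the smallest p of the list, were at 0.51, 0.40, 0.31 and 0.30. The other ventricular markers differed little, with *Myh7* at 0.05, *Myl3* at 0.02, *Myl2* at 0.015 and *Mpped2* at -0.08. The part of the share of atrial and ventricular tissue in the *Nppa* values was not tested.

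**Figure D5:**
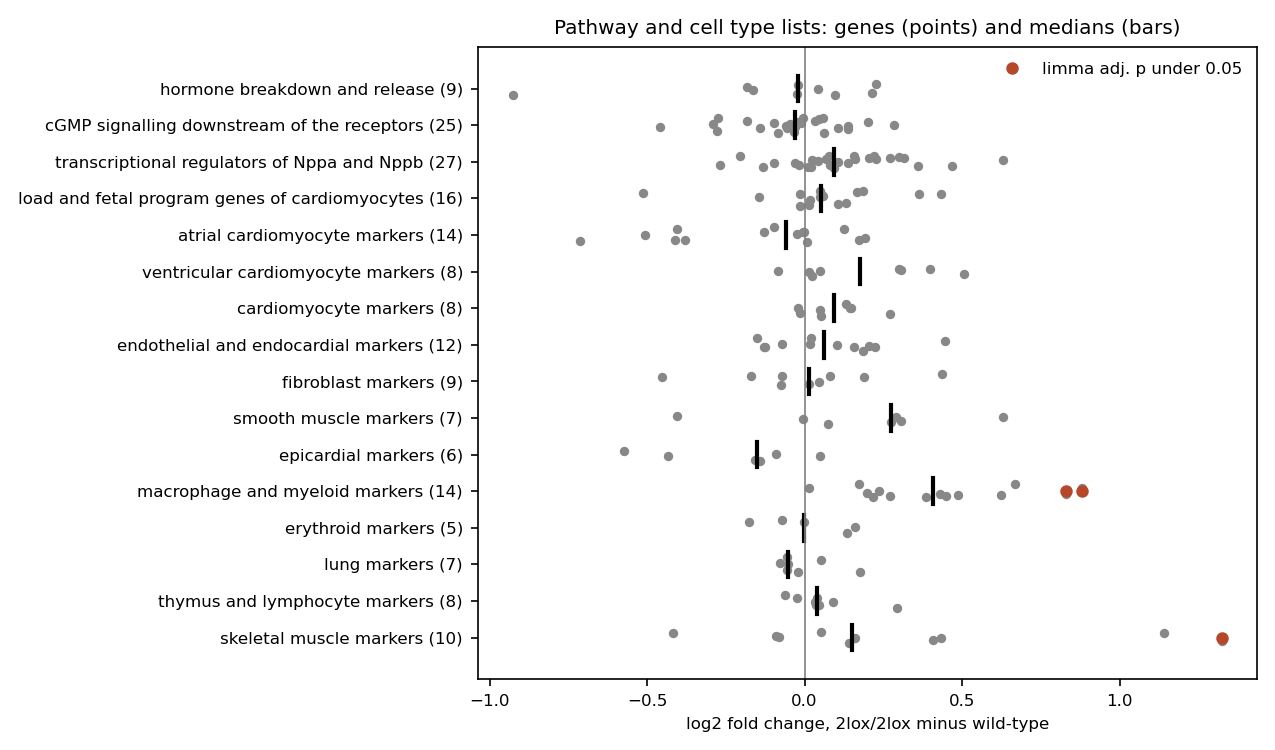
Log2 fold change, 2lox/2lox minus wild-type, of each measured gene (points, 1 probe set per gene) and the median (bars) of the pathway and cell type lists, with the number of measured genes in parentheses and genes with a limma adjusted p under 0.05 in orange. The macrophage and myeloid list has the highest median, 0.41, with *Lgals3* and *Cybb* past the threshold, and *Tnni2* is past it in the skeletal muscle list.

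The labelled tissue was borne out by its markers, and other cell types were checked the same way. *Ttn*, the giant sarcomere protein titin, averaged 13.67 ± 0.12 in 2lox/2lox hearts and 13.52 ± 0.10 in wild-type hearts (SD, n = 3 and 5). Cardiomyocyte markers had a median log2 fold change of 0.09 over 8 genes with 0 past the threshold, and *Nkx2-5*, which activates *Nppa*, was at 0.27 (limma adjusted p = 0.337). The macrophage and myeloid list was positive in 14 of 14 genes with a median of 0.41, and *Lgals3* (0.88, limma adjusted p = 0.024) and *Cybb* (0.83, limma adjusted p = 0.0346) rose in 2lox/2lox hearts. Its mean deviation was 0.32 to 0.54 in 2lox/2lox hearts and -0.19 to 0.19 in wild-type hearts, and its part in any member's difference was not tested. In the skeletal muscle list *Tnni2* rose (1.32, limma adjusted p = 0.024), with a median of 0.15 over 10 genes. None of these 3 genes passed without 2lox/2lox heart 1 or 2 or wild-type heart 1, 2 or 3. Medians were 0.01 for fibroblast, 0.27 for smooth muscle, -0.15 for epicardial, -0.05 for lung and 0.04 for thymus and lymphocyte markers, with 0 past the threshold in each, and erythroid markers ranged widely among wild-type hearts (-0.75 to 0.94). Over all genes 0.148% passed.

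The targeted gene fitted the labels, since *Kdm1a* fell in 2lox/2lox hearts in both of its probe sets, without overlap, to 9.51 ± 0.06 in 2lox/2lox hearts, against 10.31 ± 0.04 in wild-type hearts in the brighter one (SD, n = 3 and 5; log2 fold change -0.81 and -0.83, limma adjusted p = 5.15e-04 and 0.00176). *Nppa* and *Nppb* lie within 20 Mb of it. Genes in that window had an unadjusted p under 0.05 in 16.2% of 550 and groups without overlap in 10%, against 10.2% and 5.97% of all genes. Next to the hormone pair on its other side, *2510039O18Rik* was at -0.24 without overlap (limma adjusted p = 0.539). Genotype and the DNA that is inherited with the *Kdm1a* allele cannot be told apart for genes in this window. All arrays had medians between 5.03 and 5.10, and hearts correlated with each other at 0.992 to 0.997.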

How the data were processed

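The authors deposited log2 expression levels of 45101 probe sets for 8 E18.5 hearts (3 2lox/2lox, 5 wild-type), 1 Affymetrix Mouse430 array each, already normalized between arrays. How probes were summarized into levels is stated neither in the labels nor in the methods. Another treatment of background would change low values most. The submitters' processing notes name limma, and the study's methods name a moderated statistic with Benjamini-Hochberg correction and a threshold of 0.05. Arrays have no read depth, and the number of hearts limits the precision. Nothing in the labels shows more than that each array is a separate heart.

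No further normalization was applied. Each probe set was fitted with limma 3.58.1 in R 4.3.3 (lmFit and eBayes), 2lox/2lox minus wild-type, two-sided, over all probe sets, with 95% intervals from the same fit. The intervals hold for single probe sets and are not adjusted. Genes were named from the platform annotation, updated by gene identifier to RefSeq (GRCm38.p6), which matched 99.4% of 34958 probe sets with 1 gene. Another 932 carried several genes and 9211 none, and these were not used for members or lists. Lists used the brightest probe set of each gene, and list genes without one were left out. Named genes were all members, *Kdm1a*, up to 4 genes with the smallest p per list, and the 5 genes most like *Nppa* and *Nppb* by Pearson r. *Mme* and *Gucy1b1* probe sets beside the brightest, both neighbours of the hormone pair and *Xist* were named after their values were seen. The other atrial and ventricular markers, *Myh6*, *Tnni3*, *Pecam1*, *Tek* and *Nfatc1* were likewise named afterwards. The members and lists were chosen with earlier results of these data known. Correlations used exact permutation over all pairings, two-sided. Alternatives were other moderation, normalization, dim filters, weighted arrays, a block for the replicate number, covariates for sex or for the 3'-5' gap, the mean of a gene's probe sets, each heart left out, and, added after seeing the data, hearts with low *Xist* only. The fit was tested on simulated data.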

Additional observations from a re-analysis of the deposited data

Results flagged for a closer look

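Some values of single wild-type hearts stood apart from the other 4 of their genotype (gap over range above Dixon's 95% critical value). Of 84 probe sets examined, 7 did so, 2 of them among the 10 members, and chance gives about 1 in 20. Wild-type heart 5 was low for *Nppa* (13.56) and for *6030468B19Rik* (5.23), which is among the genes most like *Nppa*. That gene was chosen for its likeness to *Nppa* over these same hearts. The flags are therefore not independent, which limits the comparison with 1 in 20. Wild-type heart 2 was high for *Npr3* 1450286_at (7.70), which lies on the far side from the 2lox/2lox hearts. The same heart was low for *Gucy1a1* (10.18) and for *Wt1* (5.66). Wild-type heart 4 was low for *Des* (10.38) and for *Nkx2-1* (4.36). The 3 2lox/2lox hearts are too few for this check.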

How the results depend on the processing

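*Nppa*, *Nppc*, *Npr1*, *Npr2* and all 3 *Npr3* probe sets kept their sign in every alternative that gave a value. The filters on dim probe sets removed *Npr1* (both) and *Nppc* (1 of them). The sign turned for *Corin* (0.041 with the 3'-5' covariate), *Furin* (-0.082 with it) and *Nppb* (-0.086 with the replicate block), and the cause was not tested. With single hearts left out, log2 fold changes ranged from -0.38 to -0.13 for *Nppa*, -0.017 to 0.35 for *Nppb* (-0.017 without 2lox/2lox heart 2), 0.15 to 0.30 for *Nppc*, -0.16 to 0.012 for *Corin* (0.012 without 2lox/2lox heart 1), 0.0042 to 0.22 for *Furin*, 0.06 to 0.22 for *Npr1* and 0.05 to 0.19 for *Npr2*. For *Npr3* they were -0.20 to -0.13 (1435184_at), -0.62 to -0.45 (1448024_at) and -0.64 to -0.38 (1450286_at).

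The number of member probe sets past the threshold, 0 with all hearts, was 2 with the sex covariate (-0.54 and -0.53), 2 in hearts with low *Xist* only (2 2lox/2lox and 4 wild-type, -0.59 for both, limma adjusted p = 0.0296 and 0.0218), and 0 to 2 with single hearts left out (2 without 2lox/2lox heart 3). All were the *Npr3* probe sets 1448024_at and 1450286_at. The setting of low *Xist* and the fit without 2lox/2lox heart 3 both set aside that heart. They keep 2lox/2lox hearts 1 and 2, with 3'-5' gaps of 0.52 and 0.50, against at most 0.38 in wild-type hearts. Genotype and RNA quality cannot be told apart in those 2 settings. Over all probe sets the count was 36, against 9 with the 3'-5' covariate, 324 in hearts with low *Xist* only and 17 to 797 with single hearts left out (797 without 2lox/2lox heart 3). The count with the sex covariate is not given here. The replicate numbers did not pair the hearts (correlations of deviations 0.01, -0.08 and -0.05), and with the replicate block 0 probe sets passed. Of the lists, the 2 myeloid genes and *Tnni2* did not pass with the 3'-5' covariate. Without 2lox/2lox heart 3, 2 atrial, 2 cyclic GMP, 1 regulator and 1 load gene passed. So did 1 gene of the hormone breakdown and release list, 3 myeloid genes and 1 skeletal muscle gene. With 3 2lox/2lox hearts, differences smaller than the distance from an estimate to the end of its interval could not be told from 0. These intervals are not adjusted over probe sets, so one that leaves out 0 does not mean that the adjusted threshold was passed. Low levels such as those of *Npr1* and *Nppc* may be background.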
